A study of Mus musculus with 8 samples.

Results

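The genes described here are the WNT ligands (Wnt), their Frizzled receptors (Fzd) and coreceptors (Lrp5 and Lrp6), the secreted modulators (Sfrp, Dkk, Frzb and Wif1) and 3 intracellular genes of the pathway, in mouse embryonic fibroblasts (MEFs) with and without the transcription factors STAT5A and STAT5B. Members were chosen by name from the array annotation: every Wnt, Fzd, Sfrp or Dkk symbol ending in a digit and an optional letter, and Frzb, Wif1, Lrp5, Lrp6, Axin2, Lef1, Tcf7 and Ctnnb1. Tcf7 is not analysed here. This gave 44 members of 18193 genes: 19 ligands, 10 receptors, 2 coreceptors, 10 secreted modulators and 3 intracellular genes. RNA was measured on 8 Affymetrix whole-genome arrays, which carry several short probes (a probe set) for each transcript. The 4 groups of 2 arrays were Stat5a/b-null MEFs with growth hormone (GH) at 1 ug/ml, Stat5a/b-null MEFs without GH, wild-type MEFs with GH at 1 ug/ml and wild-type MEFs without GH. All were C57BL/6 cells at passage 13, starved for 5 hours and then kept with or without GH for 2 hours. The labels do not say whether each genotype is 1 line or several embryos, which part of the 2 Stat5 genes is deleted, or whether the replicates, numbered 2 and 3 and called biological, are separate cultures. The p-values therefore measure the spread between these arrays.

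WNT proteins are secreted signals that bind a Frizzled receptor. With the coreceptors LRP5 or LRP6 they stabilise beta-catenin, which then acts with TCF and LEF factors on target genes. Other WNT proteins, such as WNT5A, signal without beta-catenin and steer cell shape, polarity and migration. SFRP proteins and FRZB bind WNT proteins outside the cell, and DKK1 and DKK2 bind LRP5 and LRP6. In fibroblasts and other mesenchymal cells the pathway is known for its part in growth, matrix formation and the choice between bone, cartilage and fat.

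All values are log2 values of the robust multi-array average (RMA). The median over all genes was 8.04 and the first quartile 6.10. A group mean below that quartile is called dim here, and no size is given for a difference with a dim side. Array medians lay between 6.89 and 6.96, and replicate arrays correlated at 0.997 to 0.998 across probe sets. Stat5a read 5.57 and 5.84 on the null arrays with GH and 5.73 and 5.59 on those without, against 7.47 and 7.77 on the wild-type arrays with GH and 7.83 and 7.15 on those without. Stat5b read 6.93 and 7.05 on the null arrays with GH and 7.31 and 7.33 on those without, against 7.96 and 7.89 on the wild-type arrays with GH and 7.97 and 8.06 on those without. For both genes every null array lay below every wild-type array, and the null values of Stat5b were above the dim limit. The labels do not say which part of each gene is read by its probe set. Fibroblast markers had a mean over 11 genes of 13.82 to 13.96 in null cells and 12.88 to 12.99 in wild-type cells, and 0 of the 11 were dim. Of the 11, 5 were called in each GH state (45.5%), against 47.5% of all genes without GH and 45.3% with GH. They were Lum, Dcn, Pdgfra and Col3a1, higher in null cells, and Fn1, lower. Lum had a mean of 12.07 in null cells with GH against 7.70 in wild-type cells with GH. Markers of other cell types were called in varying shares. Without GH, 5 of 5 adipocyte markers (3 higher and 2 lower in null cells), 4 of 8 endothelial (all lower), 3 of 5 neural and glial (all lower), 3 of 6 skeletal muscle (1 higher and 2 lower), 2 of 6 cartilage and bone (both higher) and 1 of 7 epithelial markers (higher) were called. These are 100%, 50%, 60%, 50%, 33.3% and 14.3% of the lists in that order, against 47.5% of all genes without GH. Markers of macrophages and leukocytes moved together. With or without GH, all 10 were called lower in null than in wild-type cells. Of all genes, 22.7% were called lower without GH and 23.1% with GH. The list mean was 6.90 to 7.06 on null arrays against 10.02 to 10.36 on wild-type arrays. Of the 10, 4 were dim in null cells with GH and 2 in null cells without GH, against 0 in wild-type cells. The part of these markers in the WNT results below was not tested. In a bulk sample, fewer cells of a type and less RNA per cell cannot be told apart.

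The promoters of 4 members are shown because the results turn on these genes. Sfrp2 was bright in null cells alone, Wnt9a responded to GH in opposite directions in the 2 genotypes, and Frzb and Wnt5b carried the STAT motif. Sequences are from RefSeq (build GRCm38.p6) and give the 250 bases before the start, 5′ to 3′ on the gene's strand. Capitals mark matches to TTCNNNGAA, the palindrome bound by STAT factors, or to CTTTGA, the core of the TCF and LEF site, on either strand.
Sfrp2 (chr3:83766071-83766320, plus strand): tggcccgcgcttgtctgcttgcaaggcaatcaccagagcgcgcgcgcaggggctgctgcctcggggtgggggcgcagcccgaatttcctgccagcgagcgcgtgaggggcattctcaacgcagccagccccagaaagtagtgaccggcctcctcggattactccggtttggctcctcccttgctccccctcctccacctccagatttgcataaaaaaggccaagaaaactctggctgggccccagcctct
Wnt9a (chr11:59306680-59306929, plus strand): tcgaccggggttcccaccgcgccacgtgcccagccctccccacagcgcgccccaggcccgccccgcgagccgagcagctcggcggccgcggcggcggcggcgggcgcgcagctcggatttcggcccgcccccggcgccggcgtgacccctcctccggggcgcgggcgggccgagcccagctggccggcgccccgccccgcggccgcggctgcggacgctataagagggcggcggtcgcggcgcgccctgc
Frzb (chr2:80447397-80447646, minus strand): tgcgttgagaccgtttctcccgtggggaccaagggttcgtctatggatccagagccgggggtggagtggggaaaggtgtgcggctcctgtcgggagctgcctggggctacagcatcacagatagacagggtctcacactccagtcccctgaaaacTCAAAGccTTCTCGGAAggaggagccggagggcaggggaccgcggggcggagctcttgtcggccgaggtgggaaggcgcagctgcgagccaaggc
Wnt5b (chr6:119467212-119467461, minus strand, 1 of its 3 starts): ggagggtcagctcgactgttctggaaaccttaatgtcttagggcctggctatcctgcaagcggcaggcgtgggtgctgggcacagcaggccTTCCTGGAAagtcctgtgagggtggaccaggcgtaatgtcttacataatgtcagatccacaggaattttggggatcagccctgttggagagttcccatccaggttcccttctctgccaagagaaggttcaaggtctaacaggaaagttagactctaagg
The table held 37 promoter windows for 30 of the 44 members, each running from 250 bases before to 50 after the start. TTCNNNGAA occurred in 2 of the 37 (5.41%), against 8.3% of 32851 windows of all genes. The 2 genes were Frzb, which was lower in null cells, and Wnt5b, which was higher. CTTTGA occurred in 6 (16.2%), against 16% of all windows, and the genes were Dkk1, Frzb, Fzd1, Lef1, Wnt11 and Wnt5b. In the Frzb promoter the 2 motifs lie side by side. A match describes letters only, and a window without one says nothing about binding. Member promoters had a median GC content of 67.3% and a median of 25 CpG dinucleotides, against 52.7% and 7 over all promoters.

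Whether loss of STAT5 changed the pathway was asked by setting null against wild-type cells in each GH state. In null cells the ligands Wnt4, Wnt5a, Wnt2 and Wnt9a, the receptor Fzd7 and the modulators Dkk3 and Frzb were lower, while the ligand Wnt5b, the receptor Fzd4, the coreceptors Lrp5 and Lrp6 and the modulators Sfrp2 and Dkk2 were higher. Without GH, 22 of the 44 members (50%) passed an adjusted p of 0.05 in limma, 12 higher and 10 lower in null cells, against 47.5% of all genes (24.8% higher and 22.7% lower). With GH, 24 (54.5%) passed, 10 higher and 14 lower, against 45.3% of all genes (22.2% higher and 23.1% lower). With the GH states averaged, 24 (54.5%) passed, 12 higher and 12 lower, against 54.6% of all genes (27.7% higher and 26.8% lower). The median log2 difference of the members was 0.04 without GH and 0.00 with GH, against 0.03 and -0.02 over all genes. The share of WNT genes called was thus near that of all genes, and what follows describes which ones they were. Of the calls, 20 were made in both GH states, all in the same direction (10 higher and 10 lower). That is 90.9% of the calls without GH and 83.3% of those with GH. The same overlap was not counted over all genes. The values of 22 members did not overlap between the 4 null and the 4 wild-type arrays, a count not made over all genes. A called difference of at least 2-fold in 1 or both GH states was measured for 12 members, Sfrp2 with its dim wild-type side among them. The share of all genes at that size was not counted either, so these counts describe these members alone.

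**Figure D1:**
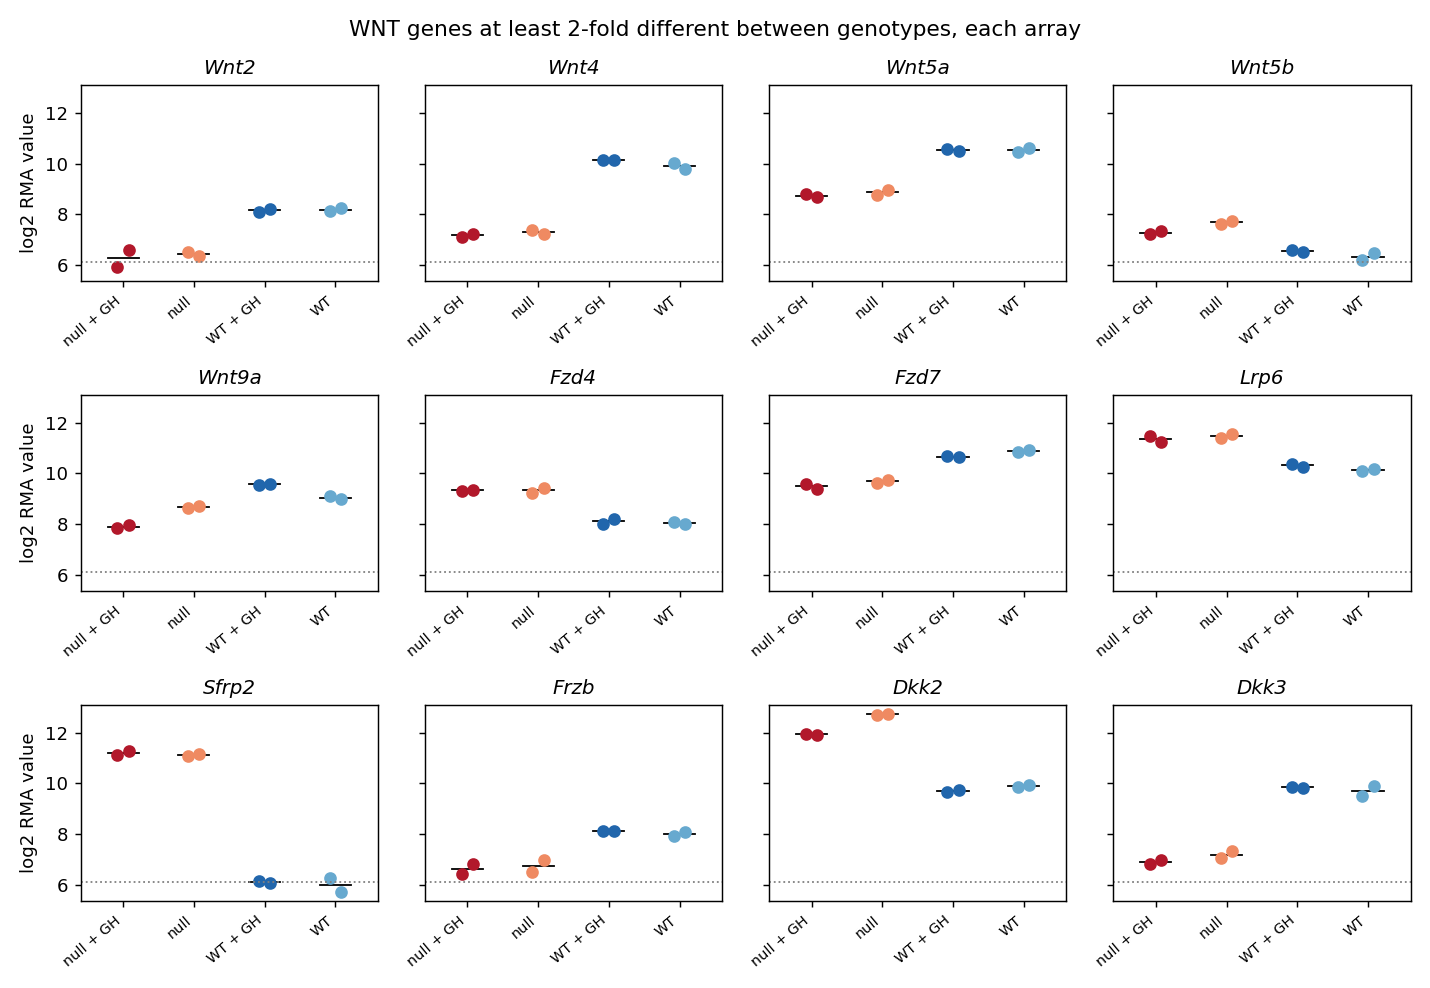
Log2 RMA values of the 12 members called with at least a 2-fold genotype difference, 1 panel per gene. Points are the 2 arrays of each group, bars their mean, and the dotted line the dim limit of 6.10. In each panel the null and the wild-type arrays lie apart, and the Sfrp2 means of wild-type cells lie at or below the dotted line.

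Among the 19 ligands, 6 were called without GH (31.6%, 1 higher and 5 lower) and 7 with GH (36.8%, 1 higher and 6 lower). These shares lay below the 47.5% and 45.3% of all genes, a description without a test. Wnt4, a ligand known for its role in kidney and female gonad development, read 7.11 and 7.22 on the null arrays with GH and 7.36 and 7.23 on those without, against 10.16 and 10.14 on the wild-type arrays with GH and 10.01 and 9.80 on those without. Every null array lay far below every wild-type array. The difference was -2.60 ± 0.10 log2 (SE, 2 arrays per group) without GH, or 6.08-fold lower (adjusted p = 7.95e-10), and -2.99 ± 0.10 with GH, or 7.93-fold lower (adjusted p = 2.18e-10). A further Wnt4 probe set was also lower, by -1.66 and -2.10 log2 in the same comparisons.

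Wnt5a, which drives limb outgrowth and cell polarity without beta-catenin, read 8.79 and 8.68 on null arrays with GH and 8.75 and 8.97 without, against 10.56 and 10.49 on wild-type arrays with GH and 10.44 and 10.63 without. Again the genotypes did not overlap, and the 4 arrays of each genotype lay close together whether or not GH was given. Null cells were 3.19-fold lower without GH (-1.67 ± 0.11 log2, adjusted p = 6.46e-08) and 3.45-fold lower with GH (-1.79 ± 0.11, adjusted p = 3.76e-08). Wnt2, a ligand of the beta-catenin branch known from lung mesenchyme, read 5.92 and 6.59 on null arrays with GH and 6.52 and 6.36 without, against 8.10 and 8.21 on wild-type arrays with GH and 8.11 and 8.23 without. The wild-type arrays lay within a narrow band and the null arrays were near the dim limit, 1 of them below it. The difference was -1.73 ± 0.17 log2 without GH (3.32-fold lower, adjusted p = 2.66e-06) and -1.90 ± 0.17 with GH (3.73-fold lower, adjusted p = 1.27e-06).

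Wnt9a, a ligand with a role in joint formation, was lower in null cells by a margin that depended on GH. It read 7.83 and 7.95 on null arrays with GH against 9.56 and 9.57 on wild-type arrays with GH, and 8.64 and 8.72 on null arrays without GH against 9.09 and 8.99 on wild-type arrays without GH. The gap was wide with GH and narrow without it, with no overlap in either state. The difference was -1.68 ± 0.09 log2 with GH (3.20-fold lower, adjusted p = 1.57e-08) and -0.36 ± 0.09 without (1.28-fold lower, adjusted p = 0.0051). A second Wnt9a probe set was not called without GH (-0.15 log2, adjusted p = 0.332). With GH it was called lower in null cells, where it was dim (adjusted p = 1.65e-05).

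Wnt5b was the 1 ligand that was higher in null cells, although it is the closest relative of Wnt5a. It read 7.21 and 7.33 on null arrays with GH and 7.63 and 7.72 without, against 6.58 and 6.51 on wild-type arrays with GH and 6.18 and 6.47 without. All null arrays lay above all wild-type arrays, with the widest gap in the absence of GH. Without GH null cells were 2.55-fold higher (1.35 ± 0.11 log2, adjusted p = 4.95e-07), and with GH 1.65-fold higher (0.72 ± 0.11, adjusted p = 0.000112). The 2 other ligands called changed little: Wnt16, a ligand with a role in bone, differed by -0.36 log2 without GH (adjusted p = 0.0199) and -0.32 with GH (adjusted p = 0.0372), and Wnt11, known from cell movements in the gastrula, differed by -0.42 with GH (adjusted p = 0.00347). Without GH the Wnt16 call was lost when null replicate 2, null replicate 3 or wild-type replicate 3 was left out (adjusted p 0.0556, 0.0919 and 0.155). With GH, Wnt16 was lost when null replicate 2, null replicate 3 or wild-type replicate 2 was left out (adjusted p = 0.23, 0.0544 and 0.306), and with each array centred on its median (0.0595).

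Of the 10 Frizzled receptors, the 7-pass membrane proteins that bind WNT ligands, 7 were called without GH (70%, 4 higher and 3 lower). With GH, 8 were called (80%, 4 higher and 4 lower). Over all genes 47.5% were called without GH and 45.3% with GH. None was dim. Fzd4, which also serves as the receptor of Norrin in retinal vessels, read 9.32 and 9.36 on null arrays with GH and 9.23 and 9.44 without, against 8.02 and 8.20 on wild-type arrays with GH and 8.08 and 8.0 without. The arrays of a genotype overlapped between GH states and those of different genotypes did not. Null cells were 2.46-fold higher without GH (1.30 ± 0.10 log2, adjusted p = 4.25e-07) and 2.35-fold higher with GH (1.23 ± 0.10, adjusted p = 7.18e-07). Fzd7, a widely used receptor of early embryos and stem cells, moved the other way. It read 9.59 and 9.38 on null arrays with GH and 9.64 and 9.74 without, against 10.67 and 10.63 on wild-type arrays with GH and 10.85 and 10.93 without. Null cells were 2.30-fold lower without GH (-1.20 ± 0.10 log2, adjusted p = 5.7e-07) and 2.24-fold lower with GH (-1.17 ± 0.10, adjusted p = 7.84e-07).

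The other Frizzled genes differed by less than 2-fold. Fzd3, a receptor for axon guidance, was 1.69-fold lower without GH and 1.88-fold lower with GH, and Fzd1 differed by -0.29 and -0.26 log2. For Fzd1 a second probe set was not called without GH (-0.099 log2, adjusted p = 0.485) or with GH (-0.145 log2, adjusted p = 0.305). Fzd8 was 1.75-fold and 1.63-fold higher. Fzd5, a receptor needed in the yolk sac and eye, was 1.22-fold higher without GH and 1.63-fold higher with GH by its brightest probe set. The second Fzd5 probe set differed by -0.18 log2 without GH (adjusted p = 0.188) and 0.11 with GH (adjusted p = 0.459), neither called. Fzd6, known for the orientation of hairs, differed by -0.29 log2 with GH (adjusted p = 0.0232) and was not called without it. A second Fzd6 probe set was called higher in null cells without GH (0.47 log2, adjusted p = 0.00153) and was not called with GH (-0.13 log2, adjusted p = 0.313). Fzd9 and Fzd10 were not called in any comparison. Leaving out any 1 array of the compared groups ended the Fzd5 call without GH (adjusted p 0.0686 to 0.0861) and the Fzd1 call with GH (adjusted p 0.06 to 0.158), as did leaving out null or wild-type replicate 2 for Fzd1 without GH (0.0512 and 0.0644). The Fzd6 call with GH was lost without null replicate 3 (adjusted p = 0.185), wild-type replicate 2 (0.14) or wild-type replicate 3 (0.0562).

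Fzd2 had probe sets called in opposite directions. Its brightest probe set was higher in null cells, by 0.58 log2 without GH (adjusted p = 0.00104) and 0.34 with GH (adjusted p = 0.0301), and the call with GH was lost without null replicate 3 (adjusted p = 0.28) or wild-type replicate 2 (0.186). Of its 3 probe sets, a second differed by 0.50 and 0.18 log2, while the third was lower in null cells, by -0.69 (adjusted p = 0.000102) and -0.76 (adjusted p = 5.43e-05).

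Both coreceptors, the single-pass proteins that join Frizzled to pass the signal to beta-catenin, were higher in null cells. Lrp6 read 11.46 and 11.23 on null arrays with GH and 11.39 and 11.55 without, against 10.38 and 10.27 on wild-type arrays with GH and 10.09 and 10.17 without. Lrp5, known for its effect on bone mass, read 7.63 and 7.39 on null arrays with GH and 7.26 and 7.49 without, against 6.79 and 6.88 on wild-type arrays with GH and 6.45 and 6.50 without. For each gene the lowest null array lay above the highest wild-type array. Lrp6 was 2.54-fold higher without GH (1.34 ± 0.10 log2, adjusted p = 4.19e-07) and 2.03-fold higher with GH (1.02 ± 0.10, adjusted p = 5.05e-06). Lrp5 was 1.87-fold higher without GH (0.90 ± 0.11 log2, adjusted p = 1.97e-05) and 1.59-fold higher with GH (0.67 ± 0.11, adjusted p = 0.000237). The second Lrp6 probe set was higher by 0.49 log2 without GH and by 0.26 with GH, where it was not called.

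The 10 secreted modulators split in both directions, with 6 called without GH (4 higher and 2 lower) and 6 with GH (3 higher and 3 lower). That is 60% in each state, against 47.5% and 45.3% of all genes without and with GH. Sfrp2, a secreted WNT-binding protein of mesenchymal cells whose promoter is printed above, read 11.13 and 11.27 on null arrays with GH and 11.08 and 11.14 without, against 6.15 and 6.05 on wild-type arrays with GH and 6.25 and 5.71 without. The null arrays lay far above the wild-type arrays, whose means were dim in both GH states, so the difference gets no size (adjusted p = 4.78e-11 without GH and 4.81e-11 with GH). Sfrp2 has 1 probe set. Sfrp1, a relative of Sfrp2, was higher by 0.33 log2 without GH (adjusted p = 0.0109) and 0.40 with GH (adjusted p = 0.00344). Sfrp4 was higher by 0.38 log2 without GH (adjusted p = 0.00439) and not called with GH. Frzb, also named sFRP3 and known from cartilage, read 6.42 and 6.82 on null arrays with GH and 6.51 and 6.98 without, against 8.13 and 8.12 on wild-type arrays with GH and 7.91 and 8.07 without. The null arrays varied more than the wild-type arrays and stayed below all of them. Frzb was 2.37-fold lower without GH (-1.24 ± 0.15 log2, adjusted p = 2.5e-05) and 2.84-fold lower with GH (-1.51 ± 0.15, adjusted p = 5.16e-06).

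Dickkopf genes moved apart as well. Dkk2, which binds LRP5 and LRP6, read 11.96 and 11.92 on null arrays with GH and 12.71 and 12.75 without, against 9.64 and 9.74 on wild-type arrays with GH and 9.84 and 9.94 without. Null arrays were high in both states, those without GH highest. Null cells were 7.17-fold higher without GH (2.84 ± 0.09 log2, adjusted p = 1.22e-10) and 4.77-fold higher with GH (2.26 ± 0.09, adjusted p = 8.85e-10). Dkk3, the divergent member of the family, read 6.83 and 6.97 on null arrays with GH and 7.04 and 7.33 without, against 9.87 and 9.80 on wild-type arrays with GH and 9.51 and 9.89 without. Its null arrays all lay below its wild-type arrays. Null cells were 5.72-fold lower without GH (-2.52 ± 0.13 log2, adjusted p = 1.34e-08) and 7.64-fold lower with GH (-2.93 ± 0.13, adjusted p = 3.48e-09), and a second Dkk3 probe set differed by -3.11 and -3.46 log2. Dkk1, a direct target and inhibitor of the pathway, was dim in all groups, and its call with GH (lower in null cells, adjusted p = 0.037) gets no size. That call was lost without any 1 of the 4 compared arrays (adjusted p 0.0729 to 0.196), with arrays centred on their medians (0.0589), with an intensity trend (0.0702) and with a replicate block (0.0587).

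**Figure D2:**
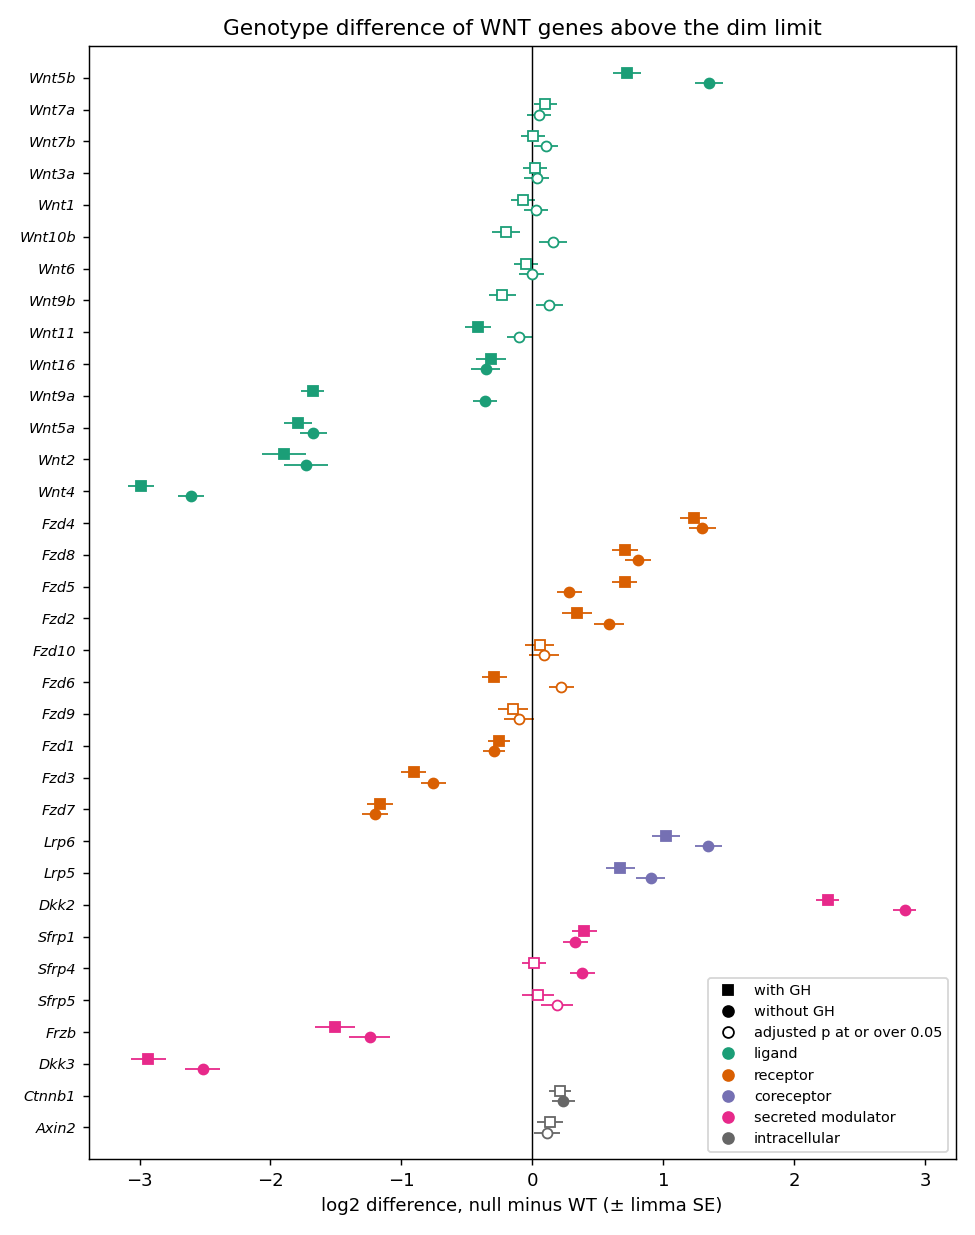
Log2 difference, null minus wild-type, of the 34 members that were not dim in any group, with GH (squares) and without GH (circles), ordered by role. Bars are limma standard errors and open symbols did not pass an adjusted p of 0.05. Wnt4 and Dkk3 lie farthest to the left and Dkk2 farthest to the right.

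Inside the cell, Ctnnb1, which encodes beta-catenin, read 14.06 and 13.97 on null arrays with GH and 13.93 and 13.98 without, against 13.82 and 13.79 on wild-type arrays with GH and 13.68 and 13.76 without. The null arrays lay just above the wild-type arrays. Ctnnb1 was 1.18-fold higher in null cells without GH (0.24 ± 0.09 log2, adjusted p = 0.0431) and was not called with GH. That call was lost when any 1 array of the compared groups was left out (adjusted p 0.055 to 0.176), when wild-type replicate 2 or 3 with GH was left out (0.0698 each), with each probe set tested alone (0.0547), with only the compared arrays in the fit (0.0901) and with a replicate block (0.0675). Its 2 other probe sets were higher by 0.76 and 0.56 log2 without GH. With GH they were higher by 0.66 and 0.46 log2, both called (adjusted p = 0.000636 and 0.00216). Averaged over GH, the brightest Ctnnb1 probe set was higher by 0.22 log2 (adjusted p = 0.00807). Axin2, a target gene of beta-catenin often used as a readout of the pathway, read 7.68 and 7.45 on null arrays with GH and 7.47 and 7.39 without, against 7.45 and 7.40 on wild-type arrays with GH and 7.35 and 7.29 without. Its arrays overlapped between the genotypes, and Axin2 was not called in any comparison. Lef1, the DNA-binding partner of beta-catenin, was lower in null cells with GH (adjusted p = 0.00361), where it was dim, so no size is given. The Lef1 call was lost without wild-type replicate 3 with GH (adjusted p = 0.0576).

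A second question was what GH did within 2 hours in each genotype. In wild-type cells 2 members were called (4.55%), Wnt9a higher and Fzd5 lower with GH, against 2.62% of all genes (1.72% higher and 0.896% lower). In null cells 5 were called (11.4%), all of them lower with GH, namely Wnt9a, Wnt5b, Fzd8, Dkk2 and Dkk1, against 11.7% of all genes (5.36% higher and 6.35% lower). The median difference of the members, GH minus none, was 0.07 log2 in wild-type cells and -0.11 in null cells, against -0.02 and -0.07 over all genes. The array values of Wnt9a, Wnt5b and Dkk2 stand above. Dkk1 read 4.54 and 4.49 on null arrays with GH against 4.89 and 4.78 without, and 4.73 and 4.79 on wild-type arrays with GH against 4.87 and 4.90 without, all dim. Fzd8 read 9.32 and 9.54 on null arrays with GH against 9.74 and 9.86 without, and 8.75 and 8.70 on wild-type arrays with GH against 9.01 and 8.99 without. Fzd5 read 7.53 and 7.31 on wild-type arrays with GH against 7.85 and 7.87 without, while all 4 null arrays lay between 8.08 and 8.16. The arrays of each called pair did not overlap.

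Dkk2 fell by 0.79 log2 in null cells with GH (1.73-fold lower, adjusted p = 0.000124), and Wnt9a fell by the same 0.79 (1.73-fold lower, adjusted p = 0.000163). Wnt5b fell by 0.40 (adjusted p = 0.0313) and Fzd8 by 0.37 (adjusted p = 0.029) in null cells. In wild-type cells Wnt9a rose by 0.53 ± 0.09 log2 (1.44-fold higher, adjusted p = 0.00591) and Fzd5 fell by 0.44 (1.36-fold lower, adjusted p = 0.0273). The Wnt5b call was lost without any 1 of the 4 null arrays (adjusted p 0.0826 to 0.212). The Fzd8 call was lost without null replicate 2 or 3 without GH (0.0647 and 0.138) or null replicate 2 with GH (0.221). The Fzd5 call was lost without wild-type replicate 2 or 3 without GH (0.0913 and 0.101), wild-type replicate 3 with GH (0.347) or either null array with GH (0.0578), and with only the compared arrays in the fit (0.121). The Wnt9a call in wild-type cells was lost without wild-type replicate 3 with GH (0.0546), and the second Wnt9a probe set was not called there (0.35 log2, adjusted p = 0.246). The dim Dkk1 was called lower in null cells (adjusted p = 0.0354), and that call was lost without any 1 null array (0.0567 to 0.181) or either wild-type array with GH (0.0571), with an intensity trend (0.0561) and with a replicate block (0.0593).

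The test of the difference between the 2 GH effects, the genotype by GH interaction, called 4 members (9.09%), against 5.16% of all genes (2.83% higher and 2.33% lower). All 4, Wnt9a, Wnt5b, Dkk2 and Fzd6, had a lower GH effect in null than in wild-type cells. For Wnt9a the GH effects had opposite signs, -0.79 log2 in null cells and 0.53 in wild-type cells, and differed by -1.32 ± 0.13 (adjusted p = 8.08e-05). With any 1 of the 8 arrays left out, the Wnt9a value stayed between -1.38 and -1.25 and was called each time (adjusted p 0.00012 to 0.0021). The second Wnt9a probe set was called in the same direction (adjusted p = 0.00889), with its mean in null cells with GH dim. Wnt9a was also the 1 member called when a difference of at least 1.5-fold was required.

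The other 3 rested on few arrays. Dkk2 differed by -0.59 ± 0.12 log2 (adjusted p = 0.017), and the call was lost without null replicate 3 without GH (0.0581), null replicate 2 with GH (0.0614), null replicate 3 with GH (0.0746) or wild-type replicate 3 with GH (0.0872). Wnt5b differed by -0.62 ± 0.15 (adjusted p = 0.0347) and was still called only without wild-type replicate 3 without GH. With 1 array left out, its value ran from -0.77 to -0.48. A second Wnt5b probe set, dim in wild-type cells, was not called (adjusted p = 0.438). Fzd6 read 9.93 and 9.74 on null arrays with GH and 10.03 and 10.14 without, against 10.17 and 10.09 on wild-type arrays with GH and 9.86 and 9.87 without. Within each genotype the 2 states did not overlap, and they ran in opposite directions. Fzd6 differed by -0.51 ± 0.13 (adjusted p = 0.0494), a call lost without any 1 array, where its value ran from -0.61 to -0.42. It was also lost with each probe set tested alone (0.0647) and with a replicate block (0.0775). A second Fzd6 probe set differed by -0.595 and was called (adjusted p = 0.0265), and the third differed by -0.02 and was not (adjusted p = 0.957).

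**Figure D3:**
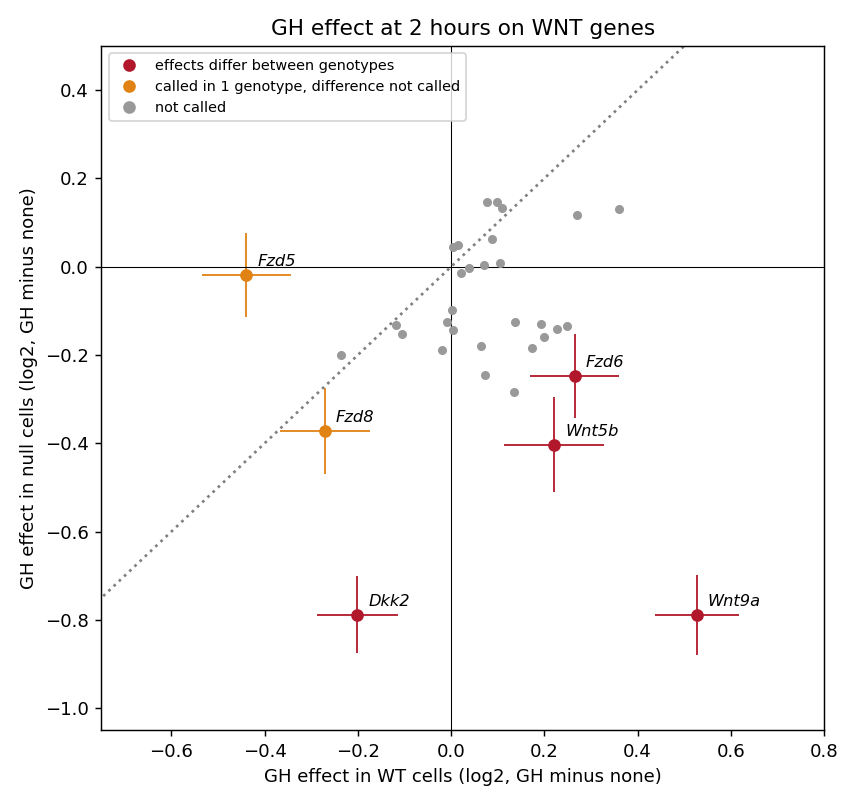
GH effect at 2 hours (log2, GH minus none) in null cells (vertical axis) against wild-type cells (horizontal axis) for the members that were not dim in any group. Lines are limma standard errors and the dotted line marks equal effects. Wnt9a lies at -0.79 in null cells and 0.53 in wild-type cells, farther from the dotted line than any other member drawn.

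The remaining members gave no call in any comparison or were dim. In all, 18 members were never called. Of these, 11 were above the dim limit in all groups: the ligands Wnt1, Wnt3a, Wnt6, Wnt7a, Wnt7b, Wnt9b and Wnt10b, the receptors Fzd9 and Fzd10, Sfrp5 and Axin2. Their genotype differences lay between -0.23 and 0.19 log2, and the bounds of the 95% confidence intervals between -0.46 and 0.45. Wnt1 and Wnt3a lay close to the dim limit, with group means of 6.11 to 6.21 and 6.13 to 6.28. The 8 members dim in every group were Wnt2b, Wnt3, Wnt8a, Wnt8b, Wnt10a, Dkk1, Dkk4 and Wif1, and 2 more, Lef1 and Sfrp2, were dim in some groups. The arrays carry no detection call, so dim is not the same as not expressed.

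The 44 members had 86 probe sets, with more than 1 for 27 of them. Of the 22 members called without GH, 16 had other probe sets, and in 12 of these another one passed in the same direction. Of the 24 called with GH, 18 had others, and 10 had another that passed in the same direction. In both states Fzd2 was the gene with a probe set called the opposite way. Averaged over GH, probe sets of Fzd5 (0.49 and -0.04 log2), Fzd6 (-0.04, 0.17 and -0.09) and Sfrp5 (0.11 and -0.12) also lay on both sides of 0, where the brightest Fzd5 probe set was called and the other values were not. Sfrp1 kept its direction over 5 probe sets but not its size, with differences averaged over GH of 0.17 to 1.59 log2. All further Wnt5a probe sets above the dim limit were lower in null cells, by -1.81 and -2.12 log2 averaged over GH. The second Fzd7 probe set differed by -0.48 log2 averaged over GH, against -1.18 for the brightest. The cause of these gaps in size was not tested.

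**Figure D4:**
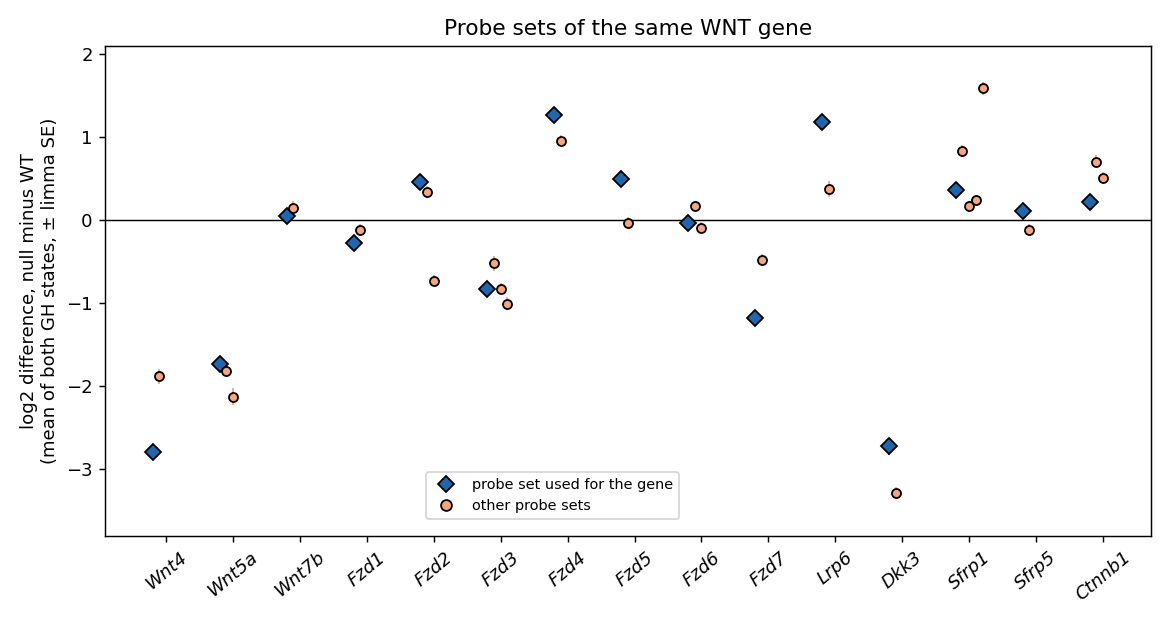
Log2 difference, null minus wild-type, averaged over both GH states, for the 15 members with several probe sets that were not dim in any group. Diamonds are the probe set used for the gene, circles the others, and bars limma standard errors. Points of Fzd2, Fzd5, Fzd6 and Sfrp5 lie on both sides of 0, and those of each other gene drawn lie on 1 side.

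Genes that act with the members were taken from a list of 62 names, of which 60 were measured: WNT secretion factors, R-spondins, other receptors and inhibitors, and the destruction complex, nuclear and polarity genes. Without GH, 39 passed (24 higher and 15 lower in null cells, 65%, median difference 0.15 log2), and with GH 40 passed (20 higher and 20 lower, 66.7%, median 0.02). Both shares lie above the 47.5% and 45.3% of all genes given earlier, a description without a test. Every share of all genes given here includes dim genes, and 5 of the 60 were dim in all groups. The largest changes above the dim limit, averaged over GH, were in Daam2 (3.24 log2), a formin linked to Dishevelled, Apcdd1 (1.98), a membrane inhibitor of WNT signalling, Ror2 (1.90), a receptor of WNT5A, Rspo3 (-1.61), a secreted enhancer of the pathway, Bcl9 (1.56), a cofactor of beta-catenin, Tle2 (1.43), a corepressor of TCF factors, Notum (1.36), a secreted enzyme that inactivates WNT proteins, and Tmem88 (-1.35), a Dishevelled-binding membrane protein. Ror2 read 10.05 and 9.98 on null arrays with GH and 9.89 and 10.13 without, against 8.16 and 8.05 on wild-type arrays with GH and 8.02 and 8.22 without. Rspo3 read 7.70 and 7.72 on null arrays with GH and 8.12 and 8.15 without, against 9.54 and 9.48 on wild-type arrays with GH and 9.44 and 9.66 without. For both genes the genotypes did not overlap. GH changed 1 gene of the list in wild-type cells, Prickle1 (lower, named after its value was seen), and 9 in null cells (3 higher and 6 lower). These are 1.67% and 15% of the list, against 2.62% and 11.7% of all genes.

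A list of 21 WNT target genes moved in both directions between genotypes. It shares Nkd1, Notum, Lgr5, Rnf43, Znrf3 and Apcdd1 with the list above, and Fn1 with the fibroblast markers. Shared genes are counted in each list. Without GH 14 passed (66.7%, 5 higher and 9 lower in null cells, median difference -0.09 log2), against 47.5% of all genes. With GH 17 passed (81%, 9 higher and 8 lower, median -0.04), against 45.3% of all genes. GH changed 0 of the 21 in wild-type cells and 6 in null cells (28.6%), all of them higher with GH, against 2.62% of all genes in wild-type cells and 11.7% in null cells (5.36% of all genes higher). These were Fosl1 (1.47 log2), Jun (1.45), Ccn4 (0.68), Twist1 (0.58), Myc (0.47) and Vcan (0.37), named after their values were seen. Fosl1, Jun and Myc are also growth factor response genes outside WNT signalling. For 5 of them (Fosl1, Jun, Ccn4, Twist1 and Myc) the GH effect was higher in null than in wild-type cells in the interaction test. That is 23.8% of the 21, against 5.16% of all genes called in that test (2.83% higher). In wild-type cells 3 of the 21 had an unadjusted p under 0.05 in limma, a share not counted over all genes.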

How the data were processed

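Expression in Stat5a/b-null and wild-type MEFs, each with and without GH, was measured on 8 arrays. Per the labels' protocols, RNA was column-purified and biotin-labelled cRNA hybridised. The authors deposited log2 values made with Partek 6.10.0511 and RMA, per the submitters' processing notes, with settings not given in the sources used here. Groups and replicate numbers came from the titles, and for 1 null array without GH the source label carries 3 where the title carries 2.

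Of 45101 probe sets, 64 controls were left out, and the platform annotation gave 34945 of the rest 1 gene, 932 several and 9160 none. The brightest 1-gene probe set by mean over all arrays stood for each of 18193 genes. Symbols were updated through Entrez identifiers for 34741 probe sets and kept for 204. Limma 3.58.1 (R 4.3.3) fitted 1 mean per group over all 8 arrays and all genes (4 residual and 7.82 prior degrees of freedom). A call means an adjusted p (Benjamini-Hochberg, over all genes) under 0.05, separately in 6 comparisons: genotype without GH, with GH and averaged, GH in each genotype, and the interaction. The fit was tested on simulated data. Genes had a median residual SD of 0.0971 log2, and 2 arrays per group limit the precision.

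Per-array values are given for members called with at least a 2-fold genotype difference (1 on the log2 scale) or called in a GH comparison or the interaction; the others are mostly given as counts and ranges, and Axin2, Ctnnb1, Lrp5, Ror2, Rspo3 and the marker genes named were added after their values were seen. From the list of other pathway genes, the 8 largest averaged changes with no dim side were named. Members, lists and the dim limit were chosen with earlier results of these data known. Alternatives were a replicate block, each probe set alone, dim genes left out, arrays centred on their medians, an intensity trend, only the compared arrays, a 1.5-fold threshold and each array left out. Deviations of replicates with the same number correlated at -0.28 to 0.13 between groups. The labels do not say whether the numbers pair the samples.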

Additional observations from a re-analysis of the deposited data

Results flagged for a closer look

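The GH effect differed between the genotypes by the test of the difference itself (limma, interaction) for 4 members, each with a lower effect in null than in wild-type cells. Wnt9a differed by -1.32 log2 (adjusted p = 8.08e-05), with GH lowering it in null cells and raising it in wild-type cells. Wnt5b differed by -0.62 log2 (adjusted p = 0.0347), with effects of -0.40 in null cells and 0.22 in wild-type cells. Dkk2 differed by -0.59 log2 (adjusted p = 0.017), with effects of -0.79 in null cells and -0.20 in wild-type cells. Fzd6 differed by -0.51 log2 (adjusted p = 0.0494), with effects of -0.25 in null cells and 0.27 in wild-type cells, neither of them called alone. The arrays show these differences 2 against 2, and of the 4 calls the one for Wnt9a held in every fit that left out 1 array.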

How the results depend on the processing

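No called difference of a member changed sign under any alternative. Such a change was possible only with arrays centred on their medians or with an array left out. The other alternatives kept the same group means and the same probe set. Fzd2 had another probe set called the opposite way, as given above. Without counting the 1.5-fold threshold, 18 of the 22 members called without GH and 18 of the 24 called with GH were called under every alternative, as were 22 of the 24 for the averaged comparison, 0 of 2 for GH in wild-type cells, 2 of 5 for GH in null MEFs and 1 of 4 for the interaction. Requiring 1.5-fold left 12 members without GH, 12 with GH, 13 averaged, 0 for GH in wild-type cells, 0 for GH in null MEFs and 1 for the interaction, since it asks for larger changes. With only the compared arrays in the fit, GH in wild-type cells called 1 member. Leaving out 1 array in turn gave 18 to 22 members without GH, 19 to 24 with GH, 22 to 25 averaged, 0 to 2 for GH in wild-type cells, 2 to 5 for GH in null MEFs and 1 to 3 for the interaction. The replicate block kept 77 of 81 member calls and gave 21, 23, 24, 2, 4 and 3 calls in the same order. The labels do not say whether the replicate numbers pair the samples. Over all genes, 1.5-fold left 2605 calls without GH (8640 before), 2423 with GH (8247), 2863 averaged (9926), 109 for GH in wild-type cells (476), 145 for GH in null MEFs (2130) and 90 for the interaction (938). Testing each probe set alone called 15377, 14728, 18214, 3598 and 1621 probe sets for the comparisons without GH, with GH, averaged, GH in null MEFs and the interaction. In wild-type cells GH called 316 genes with only the compared arrays in the fit. Leaving out single arrays gave as few as 295 genes for GH in wild-type cells, 818 for GH in null MEFs and 437 for the interaction. Signal near background limits the 10 members that were dim in some or all groups, and also Wnt1 and Wnt3a, which lay close to the dim limit.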
